A study of Mus musculus with 15 samples.

Results

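The genes described here mark or direct the monocyte and macrophage lineage: *Sfpi1*, *Irf8*, *Maf*, *Csf1r*, *Cx3cr1*, *Itgam*, *Lyz2* and *Cd68*. They were chosen by name as a set of lineage regulators and markers, and all 8 were found among the 17454 genes of the deposited table, where PU.1 is listed as *Sfpi1*. The study measured RNA from erythro-myeloid progenitors (EMPs) sorted from the mouse yolk sac (YS) at embryonic day E10.5, with *Ezh2* deleted by Tie2-Cre or by Vav-iCre. It has 15 RNA-seq libraries, each from an individual YS, in 4 groups. The knockouts have 5 libraries each (Tie2-Ezh2-KO and Vav-Ezh2-KO) and the controls 3 (Tie2-Ezh2-WT) and 2 (Vav-Ezh2-WT), made from 500 cells each by the sample labels, while the study's methods give a smaller number. The sort kept cells negative for a set of lineage antigens (CD3e, B220, F4/80, TER119, GR1 and IL-7R) and for SCA1, and positive for KIT, CD41 and CD16/32. All embryos were labelled C57BL/6 and carried *Ezh2*fl/fl. The Tie2-Ezh2-KO embryos also carried Tie2-CreTg/+, which deletes in endothelium and so also in the blood cells that arise from it, and the Vav-Ezh2-KO embryos carried Vav-CreTg/+ (Vav-iCre), which deletes in hematopoietic cells. The WT embryos of both lines had the same floxed alleles and no Cre. The study describes 3 independent experiments, which the labels do not assign to libraries, so experiment and group cannot be told apart.

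Macrophages of the early embryo arise in the YS, in part from EMPs, before blood stem cells form. PU.1 opens and activates myeloid genes, IRF8 turns progenitors toward monocytes, and signals through the CSF1 receptor carry the cells on to macrophages, which then gain chemokine receptors, integrins, lysozyme and lysosomal proteins. EZH2 is the enzyme of a polycomb repressive complex and methylates histone H3, which marks repressed genes.

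Expression was taken as deposited, in RPKM, the reads of a gene per kilobase of transcript and per fixed number of mapped reads in the library. The libraries held between 10407398 and 41025074 reads on genes, with a median of 16091836. PCR copies of one molecule are counted as separate reads, so the number of molecules behind a value is unknown. In bulk samples fewer cells of a type and less RNA per cell cannot be told apart. The genes behind the sort were present, with *Fcgr3* at 114.6, *Itga2b* at 29.3 and *Kit* at 27.3 RPKM (means of 15 libraries). Of the genes that encode antigens used for exclusion, *Emr1*, which encodes F4/80, had a mean of 0.303 RPKM.

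The label of the gene set was checked against markers of mature macrophages, which the F4/80 gate would remove. Of 14 such markers 13 were in the table and *C1qa* was at 0 in every library. The most abundant of them, *Fcgr1*, had a mean of 0.789 RPKM, and the list summed to between 0.733 and 6.89 RPKM per library. The sums were 1.56, 2.41 and 1.23 RPKM in Tie2-Ezh2-WT 4, 10 and 12, 1.74 and 4.14 in Vav-Ezh2-WT 4 and 6, 0.911, 1.61, 0.881, 0.733 and 1.96 in Tie2-Ezh2-KO 7, 9, 11, 13 and 17, and 3.53, 1.63, 6.89, 2.57 and 1.01 in Vav-Ezh2-KO 1, 9, 10, 26 and 28. Vav-Ezh2-KO 10 had the highest sum, with *C1qb* at 2.29 RPKM from 41 reads. *C1qc* was at 0 in every WT library. It ranged from 0 to 2.48 RPKM in Vav-Ezh2-KO (mean 0.52, SD 1.1) and from 0 to 0.354 in Tie2-Ezh2-KO (mean 0.11, SD 0.16). No marker of the list had a mean above 1 RPKM, and the part of such cells in the levels of the 8 genes was not tested.

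The libraries Tie2-Ezh2-WT 12 and Tie2-Ezh2-KO 9 stood apart from the others in several of the 8 genes. *Csf1r* was at 0.447 and 0.523 RPKM in them, against 2.36 to 7.56 in the other 13 libraries. *Irf8* was at 1.16 and 2.01 RPKM, against 3.77 to 16.7. *Itgam* was at 0.443 and 0.0699 RPKM, against 0.498 to 2.35. Tie2-Ezh2-WT 12 was the deepest library, with 41025074 reads, and Tie2-Ezh2-KO 9 had 15284308, near the median. They had 9446 and 9527 genes above 1 RPKM, fewer than all others but Vav-Ezh2-KO 10, in a range of 9437 to 10114. The 4 genes of the sort summed to 221.4 and 125.1 RPKM in them, the highest of the 5 WT libraries and the lowest of all 15. The part that depth, the number of genes detected or cell composition has in these low values was not tested, and results that rest on the pair are given with and without it.

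The targeted gene was measured first. *Ezh2* was at 36.9, 39.5 and 30.1 RPKM in Tie2-Ezh2-WT 4, 10 and 12, at 42.0 and 41.5 in Vav-Ezh2-WT 4 and 6, at 27.8, 26.3, 24.8, 29.5 and 26.5 in Tie2-Ezh2-KO 7, 9, 11, 13 and 17, and at 33.8, 42.5, 37.8, 38.1 and 34.0 in Vav-Ezh2-KO 1, 9, 10, 26 and 28. No Tie2-Ezh2-KO value reached the lowest WT value, whereas the Vav-Ezh2-KO values overlapped WT. The log2 change of *Ezh2* was -0.48 (SE 0.12) in Tie2-Ezh2-KO against WT (limma adjusted p = 0.0418). The call was kept in 12 of 22 alternatives, with adjusted p from 0.0134 to 0.344, and was lost without any of Tie2-Ezh2-WT 4 or 10, Vav-Ezh2-WT 4 or 6, or Tie2-Ezh2-KO 7, 11 or 17, while the change lay between -0.56 and -0.45 when 1 library was left out. In Vav-Ezh2-KO against WT it was -0.02 (SE 0.11, adjusted p = 0.969, 95% confidence interval -0.25 to 0.21). Between Tie2-Ezh2-KO and Vav-Ezh2-KO the log2 difference of *Ezh2* was -0.46 (SE 0.11, limma adjusted p = 0.0269), and the groups did not overlap. That call was kept in 13 of 20 alternatives, with adjusted p from 0.0143 to 0.0784. RPKM counts reads over the whole gene and so does not measure loss of the floxed exons.

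By mean RPKM over the 15 libraries the genes fell in a steep order. *Sfpi1* had the highest level, 160.9 ± 30.0 RPKM (SD, n = 15), at rank 775 of the 17454 genes. *Lyz2* followed with 79.3 ± 23.1 and *Cd68* with 13.1 ± 3.77 RPKM. *Sfpi1* and *Lyz2* differed by more than their spread on average, although in Vav-Ezh2-KO 9 *Lyz2* was the higher, and every *Lyz2* value lay above every *Cd68* value. The next levels were 7.17 ± 3.76 RPKM for *Irf8* and 4.85 ± 2.39 for *Csf1r*, at ranks 6111 and 6928. *Cd68* and *Irf8* were not apart by more than their spread, nor were *Irf8* and *Csf1r*. *Itgam*, at 1.02 ± 0.630 RPKM, and *Cx3cr1*, at 0.937 ± 0.491, were lower than *Csf1r* by more than their spread on average but not apart from each other. In Tie2-Ezh2-WT 12, however, *Cx3cr1* (1.12 RPKM) was above *Csf1r* (0.447), and *Itgam* (0.443) was close to it. *Maf* came last at 0.0410 ± 0.0640 RPKM, rank 14007, below *Cx3cr1* by more than their spread. It was at 0 in 7 libraries and had at most 14 reads in any, so that its differences rest on few reads.

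**Figure D1:**
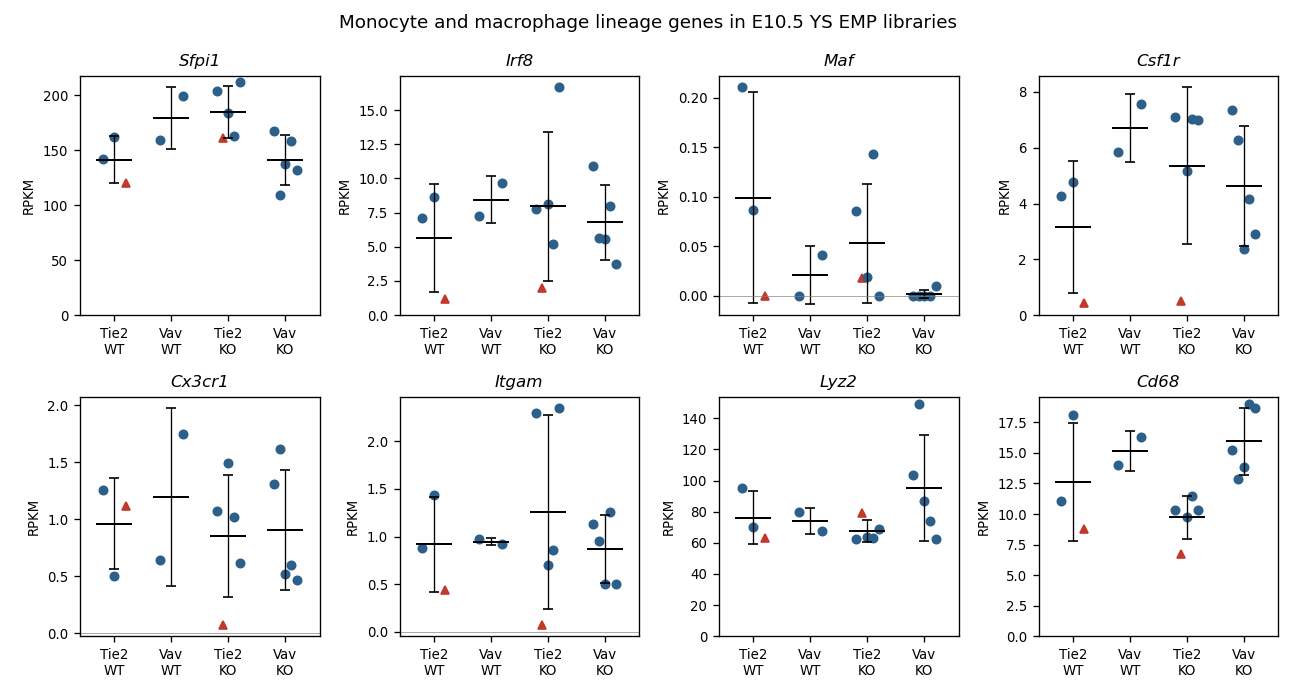
RPKM of the 8 genes (vertical axes) in the 4 groups of 3, 2, 5 and 5 libraries, from left to right; dots are libraries, bars are means, error bars are SD, and red triangles are Tie2-Ezh2-WT 12 and Tie2-Ezh2-KO 9. *Cd68* lay between 6.75 and 11.5 RPKM in Tie2-Ezh2-KO and between 12.9 and 19.0 in Vav-Ezh2-KO, and the triangles are low for *Csf1r* and *Irf8*.

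The 8 genes were read from tests over all genes, with each knockout set against the 5 WT libraries, so the first 2 comparisons share their controls. The test was limma on log2(RPKM + 0.2), and a gene was called at a Benjamini-Hochberg adjusted p under 0.05. In Tie2-Ezh2-KO against WT, limma called 0 of the 8 genes, beside 386 of 14154 genes (2.73%). At an unadjusted p under 0.05 there was 1 of the 8, *Cd68*, beside 1552 genes, and limma-voom on recovered reads called 0 of the 8 and 337 of all genes. In Vav-Ezh2-KO against WT, limma called 0 of the 8, beside 1 of 13646 genes (0.00733%), which was *Sva*, named after its value was seen. At an unadjusted p under 0.05 there were 0 of the 8 and 1082 genes, and limma-voom called 0 of the 8 and 0 of all genes. The knockouts were also compared directly, which asks whether deletion by the 2 Cre lines leaves different RNA levels, and here 1 of 7 genes tested was called, *Cd68*, beside 495 of 14120 genes (3.51%). *Maf* did not reach 0.2 RPKM in any library of that comparison and was not tested by limma. At an unadjusted p under 0.05 there were 3 of the 7, *Cd68*, *Sfpi1* and *Lyz2*, beside 2342 genes (16.6%). The difference between the effects, each knockout against its own WT, was called for 0 of the 8, beside 26 of 14394 genes (0.181%), a number that ranged from 2 with limma-voom to 78 with array weights. There, 1 of the 8, *Sfpi1*, had an unadjusted p under 0.05, as did 942 genes, and limma-voom called 0 of the 8.

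The groups were also compared by whether their libraries overlapped. Against WT, every Tie2-Ezh2-KO library was higher for 0 of the 8 genes (3.29% of all genes tested) and lower for 0 (0.714%). Every Vav-Ezh2-KO library was higher than every WT library for 0 of the 8 (0.601%) and lower for 0 (0.806%). Between the knockouts, every Tie2-Ezh2-KO library was higher for 0 of the 7 tested (3.56%) and lower for 1, *Cd68* (1.67%).

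The calls over all genes lean toward higher values in Tie2-Ezh2-KO, 343 of 386 against WT and 372 of 495 against Vav-Ezh2-KO. With quantile normalization these splits were 283 of 343 and 337 of 528. The median log2 change over all genes tested was 0.01 in Tie2-Ezh2-KO against WT, -0.02 in Vav-Ezh2-KO against WT and 0.04 between the knockouts. Over the 8 genes the medians were -0.01 with 4 higher and 4 lower, 0.05 with 4 higher and 4 lower, and -0.04 with 3 of the 7 tested higher and 4 lower.

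The transcription factors come first. *Sfpi1* (now *Spi1*, chr2:91082390-91115756 on the plus strand of GRCm38) encodes PU.1, the regulator on which the myeloid lineages depend. It was at 142.1, 162.4 and 120.3 RPKM in Tie2-Ezh2-WT 4, 10 and 12, at 159.1 and 199.3 in Vav-Ezh2-WT 4 and 6, at 203.8, 161.3, 184.4, 162.7 and 212.5 in Tie2-Ezh2-KO 7, 9, 11, 13 and 17, and at 167.4, 109.1, 137.7, 158.5 and 132.4 in Vav-Ezh2-KO 1, 9, 10, 26 and 28. The knockout groups overlapped, with 3 Tie2-Ezh2-KO libraries above every Vav-Ezh2-KO library and 4 Vav-Ezh2-KO libraries below every Tie2-Ezh2-KO library. Both knockouts overlapped WT.

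The log2 difference of *Sfpi1* between Tie2-Ezh2-KO and Vav-Ezh2-KO was 0.40 (SE 0.13, 95% confidence interval 0.13 to 0.67, limma adjusted p = 0.109). A two-sided exact permutation test of this single gene gave p = 0.0317 with n = 5 against 5. Without Tie2-Ezh2-KO 9, the lowest *Sfpi1* library of its group, the difference was 0.44 and the adjusted p 0.0478, a call that no other single omission gave, within a range of 0.0478 to 0.243 over 20 alternatives. Against WT the log2 change was 0.25 (adjusted p = 0.569, 95% confidence interval -0.03 to 0.53) in Tie2-Ezh2-KO and -0.15 (adjusted p = 0.815, interval -0.44 to 0.14) in Vav-Ezh2-KO. Against its own WT libraries, *Sfpi1* lay above the WT mean in 5 of 5 Tie2-Ezh2-KO libraries and below it in 5 of 5 Vav-Ezh2-KO libraries. The difference between these effects was 0.74 on the log2 scale (SE 0.22, interval 0.27 to 1.21) and did not pass the threshold (adjusted p = 0.309). It rests on 3 and 2 WT libraries, whose *Sfpi1* means were 141.6 ± 21.1 and 179.2 ± 28.4 RPKM (SD, n = 3 and 2).

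*Irf8* (chr8:120736358-120756694, plus strand) encodes a factor that favors monocytes over granulocytes. It was at 7.10, 8.64 and 1.16 RPKM in Tie2-Ezh2-WT 4, 10 and 12, at 7.22 and 9.68 in Vav-Ezh2-WT 4 and 6, at 7.75, 2.01, 8.12, 5.23 and 16.7 in Tie2-Ezh2-KO 7, 9, 11, 13 and 17, and at 10.9, 5.67, 5.54, 7.99 and 3.77 in Vav-Ezh2-KO 1, 9, 10, 26 and 28. The highest and the next to lowest of all values fell in the same group, Tie2-Ezh2-KO, and every group overlapped every other. The 95% confidence interval of its log2 change was -0.96 to 1.39 in Tie2-Ezh2-KO against WT and -0.79 to 1.15 in Vav-Ezh2-KO against WT. Without Tie2-Ezh2-WT 12 and Tie2-Ezh2-KO 9 these were -0.53 to 0.71 and -0.88 to 0.20. Between the knockouts the interval was -0.88 to 0.94 with all libraries and -0.26 to 1.12 without Tie2-Ezh2-KO 9.

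*Maf* (chr8:115682942-115707794, minus strand) encodes a factor of mature macrophages and lies on the same chromosome as *Irf8*. It was at 0.211, 0.0868 and 0 RPKM in Tie2-Ezh2-WT 4, 10 and 12, at 0 and 0.0413 in Vav-Ezh2-WT 4 and 6, and at 0.0862, 0.0180, 0.0185, 0.143 and 0 in Tie2-Ezh2-KO 7, 9, 11, 13 and 17. In Vav-Ezh2-KO it was at 0 in 4 libraries and had 1 read, 0.00956 RPKM, in Vav-Ezh2-KO 28. Between the knockouts 4 of 5 Tie2-Ezh2-KO libraries lay above every Vav-Ezh2-KO library (two-sided exact permutation p = 0.0476, n = 5 against 5, not adjusted), on at most 14 reads per library. The changes of *Maf* listed among the alternatives rest on as few reads. Against WT limma did not call it in either knockout (adjusted p = 0.981 in Tie2-Ezh2-KO and 0.758 in Vav-Ezh2-KO). In both of these comparisons *Maf* passed the filter of 0.2 RPKM only through Tie2-Ezh2-WT 4, at 0.211 RPKM from 8 reads.

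Of the receptors, *Csf1r* (chr18:61100598-61132149, plus strand) encodes the receptor for CSF1 and IL-34, which macrophages need to survive. It was at 4.26, 4.77 and 0.447 RPKM in Tie2-Ezh2-WT 4, 10 and 12, at 5.84 and 7.56 in Vav-Ezh2-WT 4 and 6, at 7.09, 0.523, 5.17, 7.04 and 6.98 in Tie2-Ezh2-KO 7, 9, 11, 13 and 17, and at 7.36, 6.29, 2.36, 4.17 and 2.91 in Vav-Ezh2-KO 1, 9, 10, 26 and 28. Apart from Tie2-Ezh2-KO 9, the Tie2-Ezh2-KO libraries lay close together, while Vav-Ezh2-KO was spread over a wider range that overlapped them. Against WT the log2 change of *Csf1r* was 0.23 (SE 0.70, 95% confidence interval -1.27 to 1.72, limma adjusted p = 0.971) in Tie2-Ezh2-KO. Without the 2 low libraries it was 0.24 with an SE of 0.22 and an interval of -0.23 to 0.71. In Vav-Ezh2-KO against WT it was 0.27 (interval -0.90 to 1.44) with Tie2-Ezh2-WT 12 and -0.36 (interval -1.02 to 0.30) without it. Between the knockouts it was -0.04 (interval -1.22 to 1.14) with Tie2-Ezh2-KO 9 and 0.60 (interval -0.03 to 1.23) without it. The sign of the last pair of differences changed with the library left out, and none was called.

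*Cx3cr1* (chr9:119901616-120069879, minus strand) encodes the receptor for fractalkine and marks macrophage precursors that have left the progenitor stage. It ranged from 0.506 to 1.75 RPKM in the 5 WT libraries, from 0.0697 to 1.49 in Tie2-Ezh2-KO and from 0.464 to 1.62 in Vav-Ezh2-KO, with 4 to 172 reads per library. The groups overlapped throughout, and the lowest value was that of Tie2-Ezh2-KO 9. Its log2 change had 95% confidence intervals of -1.38 to 0.60 in Tie2-Ezh2-KO against WT, -0.99 to 0.57 in Vav-Ezh2-KO against WT and -1.18 to 0.83 between the knockouts. With Tie2-Ezh2-KO 9 left out, the first was -0.72 to 0.81 and the last -0.53 to 1.05.

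*Itgam* (chr7:128062640-128118491, plus strand) encodes CD11b, the alpha chain of the integrin by which myeloid cells adhere and take up complement-coated particles. It was at 0.883, 1.43 and 0.443 RPKM in Tie2-Ezh2-WT 4, 10 and 12, at 0.975 and 0.920 in Vav-Ezh2-WT 4 and 6, at 2.29, 0.0699, 0.706, 0.860 and 2.35 in Tie2-Ezh2-KO 7, 9, 11, 13 and 17, and at 1.13, 0.951, 0.507, 1.26 and 0.498 in Vav-Ezh2-KO 1, 9, 10, 26 and 28. Tie2-Ezh2-KO held both the highest pair and the lowest library, and its coefficient of variation, 81.0%, was above the 37.8% of WT and the 40.6% of Vav-Ezh2-KO, a difference in spread that was not tested. The log2 change of *Itgam* had 95% confidence intervals of -1.09 to 1.15 in Tie2-Ezh2-KO against WT and -0.76 to 0.59 in Vav-Ezh2-KO against WT. Without Tie2-Ezh2-WT 12 and Tie2-Ezh2-KO 9 they were -0.50 to 1.19 and -0.93 to 0.38. Between the knockouts it was 0.11 (SE 0.52), and 0.62 (SE 0.39) without Tie2-Ezh2-KO 9.

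Of the lysosomal and granule proteins, *Lyz2* (chr10:117277331-117282321, minus strand) encodes lysozyme M, which breaks down bacterial walls and is made by monocytes, macrophages and granulocytes. It was at 95.4, 69.95 and 63.1 RPKM in Tie2-Ezh2-WT 4, 10 and 12, at 79.7 and 67.9 in Vav-Ezh2-WT 4 and 6, at 62.2, 79.0, 63.7, 63.1 and 69.0 in Tie2-Ezh2-KO 7, 9, 11, 13 and 17, and at 103.6, 149.2, 86.6, 74.0 and 62.5 in Vav-Ezh2-KO 1, 9, 10, 26 and 28. Vav-Ezh2-KO 9 and 1 were the highest of all, 3 Vav-Ezh2-KO libraries lay above every Tie2-Ezh2-KO library, and the groups overlapped. The log2 difference between Tie2-Ezh2-KO and Vav-Ezh2-KO was -0.44 (SE 0.18, 95% confidence interval -0.83 to -0.04) and was not called (limma adjusted p = 0.243, two-sided exact permutation p = 0.0873). Against WT it was -0.15 (interval -0.41 to 0.12) in Tie2-Ezh2-KO and 0.29 (interval -0.12 to 0.70) in Vav-Ezh2-KO.

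*Lyz1* (chr10:117287797-117292868, minus strand) is the neighboring near-identical gene, and reads could have been divided between the pair because 1 alignment was kept per read. Its level was 6.76 ± 2.49 RPKM (SD, n = 15), and the ratio of *Lyz2* to *Lyz1* RPKM stayed between 9.68 and 14.1 in the 15 libraries. The log2 change of *Lyz1* was -0.22 in Tie2-Ezh2-KO against WT, 0.25 in Vav-Ezh2-KO against WT and -0.47 between the knockouts, none of them called (limma adjusted p = 0.855, 0.831 and 0.389).

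*Cd68* (chr11:69664213-69666153, minus strand) encodes a glycoprotein of lysosomes and late endosomes that is used as a marker of macrophages. It was at 11.1, 18.1 and 8.80 RPKM in Tie2-Ezh2-WT 4, 10 and 12, at 14.0 and 16.3 in Vav-Ezh2-WT 4 and 6, at 10.3, 6.75, 9.77, 11.5 and 10.3 in Tie2-Ezh2-KO 7, 9, 11, 13 and 17, and at 15.3, 12.9, 13.9, 19.0 and 18.7 in Vav-Ezh2-KO 1, 9, 10, 26 and 28. Every Tie2-Ezh2-KO library lay below every Vav-Ezh2-KO library, as for 236 of 14120 genes (1.67%), and each knockout overlapped WT. The means were 9.72 ± 1.77 RPKM in Tie2-Ezh2-KO, 13.6 ± 3.77 in WT and 15.9 ± 2.77 in Vav-Ezh2-KO (SD, n = 5 each).

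The log2 difference of *Cd68* between Tie2-Ezh2-KO and Vav-Ezh2-KO was -0.71 (SE 0.17, 95% confidence interval -1.07 to -0.34, limma adjusted p = 0.0333), lower in 5 of 5 libraries. A two-sided exact permutation test gave p = 0.00794, the smallest that n = 5 against 5 allows. The call was kept in 11 of 20 alternatives, with adjusted p from 0.00898 to 0.0940, and the difference lay between -0.78 and -0.58 when any 1 library was left out. The adjusted p was 0.0606 without Tie2-Ezh2-KO 7, 0.0654 without 11 and 0.0508 without 17, and 0.0690 without Vav-Ezh2-KO 1, 0.0824 without 26 and 0.0940 without 28. Without the low library Tie2-Ezh2-KO 9 it was 0.0309, with a difference of -0.58. With no filter on low values it was 0.0513, with no trend in the variance 0.0622, and by limma-voom 0.0849.

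Neither side of this difference was called against WT. In Tie2-Ezh2-KO the log2 change of *Cd68* was -0.46 (SE 0.21, 95% confidence interval -0.90 to -0.01, limma adjusted p = 0.431), and in Vav-Ezh2-KO it was 0.25 (SE 0.19, interval -0.15 to 0.65, adjusted p = 0.762). The exact permutation p for n = 5 against 5 was 0.0952 and 0.302. The difference between the effects against each line's own WT was -0.39 (interval -1.09 to 0.32, adjusted p = 0.978), so the direct difference between the knockouts is not shown to be a difference between their effects.

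How the genes varied together between libraries of a genotype was described after subtracting the mean of each of the 4 groups from log2(RPKM + 0.2), over 15 libraries that share depth and cell composition across genes. Of the 28 pairs of the 8 genes, 25 had a Pearson r above 0, and 16 without Tie2-Ezh2-WT 12 and Tie2-Ezh2-KO 9, and the pairs with *Maf* rest on few reads. The closest pair was *Irf8* and *Csf1r* (r = 0.87, Spearman rho = 0.76), followed by *Csf1r* and *Itgam* (r = 0.84, rho = 0.74) and *Irf8* and *Itgam* (r = 0.82, rho = 0.83). Without the same 2 libraries their r was 0.48, 0.59 and 0.69 over 13 libraries. The first 2 thus rested in large part on that pair. *Sfpi1* and *Irf8* had r = 0.74 (rho = 0.86), and 0.73 without the pair. *Lyz2* and *Cd68* varied in opposite directions, with r = -0.48 (rho = -0.61), and -0.78 without the pair.

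Among 9725 genes above 1 RPKM in at least 8 libraries, the pattern most like *Sfpi1* was that of *Prtn3* (r = 0.91), then *Mfsd3* and *Cebpb*. For *Irf8* it was *Rassf4* (r = 0.91), then *Mvd* and *Mtus1*. For *Csf1r* it was *2310035C23Rik* (r = 0.95), then *March6* and *Fes*, and without the pair of low libraries the first of these had r = 0.62. For *Itgam* it was *Ubl3* (r = 0.96), and *Cdc14a* was also among the most alike. For *Cx3cr1* it was *Dkc1* (r = 0.90), then *Map3k7* and *Acss1*. None is given for *Maf*, which had at most 14 reads in a library. *Lyz2* was most like *Lyz1* (r = 0.95), then *Cnot2*, and *Cd68* most like *Wiz* (r = 0.92), then *Actn1* and *Jdp2*.

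The promoters of the 8 genes were searched for GAGGAA, the core to which PU.1 binds, on both strands, so that TTCCTC also counts. RefSeq windows of build GRCm38.p6, each of 300 bases around a start site, were found for 5 of the 8 genes, with 2 start sites for *Irf8*. The motif was in 2 of these 6 windows and in 9289 of all 32851 windows (28.3%). *Itgam* had 3 matches and *Cd68* had 2, while *Irf8*, *Cx3cr1* and *Lyz2* had none in these windows. Printed in capitals are the matches in *Cd68*, the gene called between the knockouts (chr11:69666121-69666420, minus strand), and in *Itgam* (chr7:128062390-128062689, plus strand), with the first *Irf8* window (chr8:120736108-120736407, plus strand), as *Itgam* and *Irf8* varied together. A match describes the sequence and does not show binding.
Cd68: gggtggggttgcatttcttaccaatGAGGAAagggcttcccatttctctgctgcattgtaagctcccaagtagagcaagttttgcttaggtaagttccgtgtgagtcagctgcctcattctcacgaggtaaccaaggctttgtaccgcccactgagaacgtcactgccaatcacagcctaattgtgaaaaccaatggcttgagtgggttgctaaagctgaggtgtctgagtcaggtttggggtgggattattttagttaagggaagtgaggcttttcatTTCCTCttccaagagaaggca
Itgam: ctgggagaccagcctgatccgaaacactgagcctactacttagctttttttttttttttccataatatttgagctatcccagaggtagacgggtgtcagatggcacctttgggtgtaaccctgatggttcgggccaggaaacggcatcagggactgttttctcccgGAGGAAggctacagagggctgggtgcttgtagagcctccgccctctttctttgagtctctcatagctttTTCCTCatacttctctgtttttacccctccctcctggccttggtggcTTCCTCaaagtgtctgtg
Irf8: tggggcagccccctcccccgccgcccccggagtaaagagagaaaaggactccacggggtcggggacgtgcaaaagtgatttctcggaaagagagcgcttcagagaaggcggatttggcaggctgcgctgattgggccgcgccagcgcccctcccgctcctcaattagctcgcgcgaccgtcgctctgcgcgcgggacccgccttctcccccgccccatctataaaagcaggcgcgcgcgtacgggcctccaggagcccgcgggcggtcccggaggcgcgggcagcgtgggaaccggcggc

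Other genes of the lineage were taken from lists by function. Among 23 myeloid transcription factors, of which 20 were tested between the knockouts, 1 was called, beside 3.51% of all genes. It was *Gfi1*, an opponent of monocyte fate (log2 difference 1.63, limma adjusted p = 0.00906). *Gfi1* lay between 0.186 and 1.03 RPKM in WT, between 0.261 and 1.25 in Tie2-Ezh2-KO and between 0 and 0.0573 in Vav-Ezh2-KO. The Vav-Ezh2-KO values rest on at most 4 reads per library and lie below the filter of 0.2 RPKM. Between the knockouts *Gfi1* was thus tested only through Tie2-Ezh2-KO, and the size of its difference depends on the pseudocount. Its log2 change against WT was -0.06 in Tie2-Ezh2-KO (limma adjusted p = 0.986) and -1.70 in Vav-Ezh2-KO (0.203), where every library lay below every WT library. The difference between the effects was 2.12 and not called (0.232). None of that list was called against WT. In 14 growth factors and receptors, which hold *Csf1r*, and in 14 chemokine and adhesion receptors, which hold *Cx3cr1* and *Itgam*, limma called 0 genes in each comparison. Their median log2 changes in Tie2-Ezh2-KO against WT were -0.14 and -0.08.

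The list of Fc receptors, lectins and signaling adaptors, through which macrophages sense particles, was counted gene by gene and was not tested as a set. In Tie2-Ezh2-KO against WT, 19 of its 21 genes were lower, with a median log2 change of -0.61 beside 0.01 for all genes, and limma called 0 of them. In Vav-Ezh2-KO against WT, 14 were higher and 7 lower, with a median of 0.06 beside -0.02 for all genes, and limma called 0. *Fcgr3* and *Fcgr2b*, by which the cells were also sorted, belong to the list. In Tie2-Ezh2-KO against WT they changed by -0.47 and -0.65 (limma adjusted p = 0.131 for both). The part of the sort, or of the other cells whose markers are given below, in these changes was not tested. In Tie2-Ezh2-KO against Vav-Ezh2-KO 18 of 21 were lower and 3 were called, beside 3.51% of all genes tested. In Tie2-Ezh2-KO, *Trem2* and *Ms4a6c* were at most 0.0542 and 0.0363 RPKM, below the filter of 0.2 RPKM. In both comparisons of Tie2-Ezh2-KO they were thus tested only through the other group, and could hardly count as other than lower. *Tyrobp*, the adaptor DAP12, was at 129.3, 143.5, 99.7, 81.5 and 167.8 RPKM in Tie2-Ezh2-KO 7, 9, 11, 13 and 17 and at 299.4, 276.9, 198.2, 211.4 and 246.4 in Vav-Ezh2-KO 1, 9, 10, 26 and 28. The groups did not overlap, and the log2 difference was -1.01 (adjusted p = 0.00486). *Clec7a*, the receptor dectin, lay between 0 and 3.31 RPKM in Tie2-Ezh2-KO and between 4.07 and 11.8 in Vav-Ezh2-KO (log2 difference -3.66, adjusted p = 0.00476). *Ly86*, a partner of a Toll-like receptor homolog, lay between 0 and 1.26 against 2.62 to 4.90 RPKM (log2 difference -2.55, adjusted p = 0.00831). All 3 calls were kept in 20 of 20 alternatives, and none of the 3 was called against WT or in the difference between the effects with all libraries. In Tie2-Ezh2-KO against WT the log2 changes were -0.61 for *Tyrobp*, -3.22 for *Clec7a* and -0.95 for *Ly86* (limma adjusted p = 0.207, 0.0646 and 0.801), and in Vav-Ezh2-KO against WT 0.41, 0.44 and 1.60 (0.612, 0.884 and 0.544). Without Tie2-Ezh2-WT 12 and Tie2-Ezh2-KO 9 the changes in Tie2-Ezh2-KO were -0.77, -3.57 and -1.19 (adjusted p = 0.105, 0.0114 and 0.399), so that *Clec7a*, at 0.492 RPKM in Tie2-Ezh2-WT 12 and between 6.11 and 14.1 in the other WT libraries, was then called, and those in Vav-Ezh2-KO were 0.30, -0.32 and 0.96. The differences between the effects were -0.44, -3.12 and -1.68 (adjusted p = 0.957, 0.695 and 0.949), and -0.60, -4.13 and -2.38 without the same 2 libraries (0.622, 0.164 and 0.381).

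**Figure D2:**
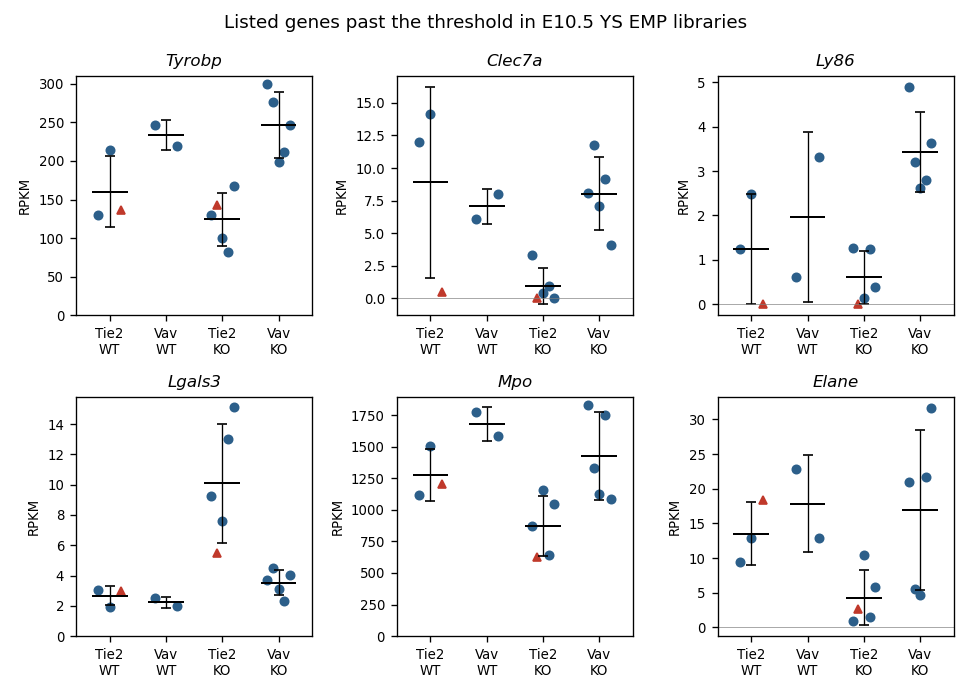
RPKM of 6 listed genes past the threshold (vertical axes) in the 4 groups of libraries, with dots for libraries, bars for means, error bars for SD, and red triangles for Tie2-Ezh2-WT 12 and Tie2-Ezh2-KO 9. *Tyrobp*, *Clec7a* and *Ly86* are lower in every Tie2-Ezh2-KO than in every Vav-Ezh2-KO library, and *Lgals3* is higher.

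Within the 23 genes for phagocytosis and the lysosome, which hold *Cd68* and *Lyz2*, 17 of 21 tested were lower in Tie2-Ezh2-KO than in Vav-Ezh2-KO. Their median log2 difference was -0.18 beside 0.04 for all genes, and *Cd68* was the one called lower, beside 3.51% of all genes called in either direction. *Lgals3*, which encodes galectin, went the other way, at 9.24, 5.49, 7.63, 13.0 and 15.1 RPKM in Tie2-Ezh2-KO 7, 9, 11, 13 and 17 and between 1.93 and 4.48 in the other 10 libraries. It was higher against WT (log2 change 1.88, limma adjusted p = 0.00107) and against Vav-Ezh2-KO (1.41, adjusted p = 0.00806), in 22 of 22 and 20 of 20 alternatives. In the difference between the effects it was 1.19 and not called (adjusted p = 0.585).

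Some listed markers of other lineages also differed between the groups, and these lists hold genes that progenitors also express. The erythroid list has 8 genes, of which 7 were in the table and none was at 0 in every library, and the TER119 gate would remove mature erythroid cells. It has *Hbb-bh1* as its most abundant gene (mean 165.4 RPKM). It summed to 325.9, 263.6 and 359.6 RPKM in Tie2-Ezh2-WT 4, 10 and 12, 231.3 and 271.3 in Vav-Ezh2-WT 4 and 6, 627.7, 752.0, 1119, 421.1 and 498.9 in Tie2-Ezh2-KO 7, 9, 11, 13 and 17, and 236.1, 272.6, 245.2, 291.0 and 346.2 in Vav-Ezh2-KO 1, 9, 10, 26 and 28. The Tie2-Ezh2-KO sums were all above the others. *Hba-x* (log2 change 6.33, limma adjusted p = 8.88e-05) and *Hbb-bh1* (1.18, adjusted p = 0.0441) were called higher in Tie2-Ezh2-KO against WT, beside 2.73% of all genes tested. Both were also called against Vav-Ezh2-KO (3.51% of all genes), and *Hba-x* in the difference between the effects (0.181%). *Hba-x* was kept in 21 of 22, 20 of 20 and 6 of 25 alternatives in these 3 comparisons, and *Hbb-bh1* in 8 of 22 and 13 of 20. Without Tie2-Ezh2-WT 12 and Tie2-Ezh2-KO 9, *Hbb-bh1* was not called against WT (1.23, adjusted p = 0.0827), nor was *Hba-x* in the difference between the effects (6.28, 0.0944). The part of this in the lower *Cd68* was not tested.

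The GR1 gate would remove neutrophils. The neutrophil granule list, 12 genes all in the table with *Mpo* most abundant (mean 1244 RPKM) and *Camp* and *Ngp* at 0 in every library, summed to 1318, 1753 and 1400 RPKM in Tie2-Ezh2-WT 4, 10 and 12, 2131 and 1965 in Vav-Ezh2-WT 4 and 6, 1124, 807.2, 1420, 819.4 and 1334 in Tie2-Ezh2-KO 7, 9, 11, 13 and 17, and 2226, 1479, 1382, 2098 and 1368 in Vav-Ezh2-KO 1, 9, 10, 26 and 28. *Mpo* (log2 change -0.75, limma adjusted p = 0.0414) and *Elane* (-2.20, adjusted p = 0.0261) were called lower in Tie2-Ezh2-KO against WT, beside 2.73% of all genes tested. They were kept in 9 and 13 of 22 alternatives. Without Tie2-Ezh2-WT 12 and Tie2-Ezh2-KO 9 neither was called (-0.70 and -2.08, adjusted p = 0.0584 and 0.0945). Of the list, 6 of 10 genes tested were lower against WT (median -0.15 beside 0.01 for all genes), and 3 of 8 against Vav-Ezh2-KO (median 0.06 beside 0.04), where 0 were called. *S100a8* and *S100a9* were at 0 in WT and Vav-Ezh2-KO and reached 0.835 and 1.02 RPKM in Tie2-Ezh2-KO. They were thus tested only through Tie2-Ezh2-KO, as was *Mmp9*, which reached 0.2375 RPKM there. *Lcn2* and *Mmp8*, at 0 in Tie2-Ezh2-KO, were tested against WT only through WT. The directions of these genes in the counts were largely set by the filter. The part of neutrophils in the levels of the 8 genes was not tested. In the mast cell, megakaryocyte and visceral endoderm lists, *Cpa3* and *Treml1* were called lower and *Amn* higher in Tie2-Ezh2-KO against Vav-Ezh2-KO, and *Gp1ba* lower and *Amn* higher against WT. Of all genes tested, 3.51% were called between the knockouts and 2.73% in Tie2-Ezh2-KO against WT. *Amn* had at most 5 reads and 0.176 RPKM in a Vav-Ezh2-KO library, below the filter of 0.2 RPKM. Between the knockouts it was thus tested only through Tie2-Ezh2-KO, at 1.52 to 4.655 RPKM, and the size of its difference depends on the pseudocount. Against Vav-Ezh2-KO, 2 of 5 mast cell genes tested were lower (median 0.23), 5 of 7 megakaryocyte genes were lower (median -0.23) and 6 of 6 visceral endoderm genes were higher (median 1.76). *Apoa4*, at most 0.0418 RPKM in Vav-Ezh2-KO, and the mast cell gene *Fcer1a*, at 0 there, were like *Amn* tested only through Tie2-Ezh2-KO. These 3 genes could hardly count as other than higher. Kept were *Cpa3* in 16 of 20 alternatives and *Gp1ba* in 9 of 22. The visceral endoderm list summed to 150.4 RPKM in Tie2-Ezh2-WT 4 and 223.8 in Tie2-Ezh2-KO 7, and to at most 12.6 in the other 13 libraries. In the lists for the sort, the lineage gate, mature macrophages, endothelium and mesenchyme limma called 0 genes in each comparison. Of the mature macrophage markers, 6 of 7 tested were lower in Tie2-Ezh2-KO than in Vav-Ezh2-KO (median log2 difference -0.41) and 7 of 8 were lower than in WT (median -0.22), and the 4 genes of the sort were all lower than in WT (median -0.31), while against Vav-Ezh2-KO 2 were higher and 2 lower (median -0.26). Of those macrophage markers *Trem2* was tested only through WT or Vav-Ezh2-KO, and *Cd5l*, against WT, only through WT. *C1qc* and *Mertk* against WT, and *Mrc1* and *Mertk* against Vav-Ezh2-KO, were tested only through Tie2-Ezh2-KO. Of the endothelial markers 5 of 6 were higher in Tie2-Ezh2-KO than in Vav-Ezh2-KO (median 0.44) and than in WT (median 0.26). The most abundant of them, *Pecam1*, was lower, with means of 11.97 RPKM in Tie2-Ezh2-KO, 18.16 in WT and 19.96 in Vav-Ezh2-KO. The endothelial list summed to means of 40.37 (SD 4.929), 40.12 (SD 2.409) and 37.99 RPKM (SD 11.61) in the same order of groups. The part of these marker differences in the lower *Cd68* was not tested.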

How the data were processed

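Single-end reads were aligned by the authors to GRCm38 with TopHat2 2.0.13, keeping 1 alignment per read, counted on RefSeq genes with featureCounts and deposited as RPKM on a linear scale. RPKM does not correct for composition. Reads per gene were recovered from the steps between RPKM values, at least 99.998% of each total. limma 3.58.1 in R 4.3.3 (eBayes with trend, two-sided) was fitted to log2(RPKM + 0.2) for every gene that passed 0.2 RPKM in 1 or more of the fitted libraries, with p adjusted over all genes tested. Exact permutation tests covered 252 divisions of 10 libraries. Python 3.11.15 with numpy 2.4.6, pandas 2.3.3, scipy 1.17.1 and matplotlib 3.10.9 did the rest. The code was tested on simulated data.

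The 8 genes and the 15 gene lists (170 genes) were chosen with earlier results of these data known. Named from each list were genes past the threshold, the 3 with the highest mean and the 2 with the largest change in Tie2-Ezh2-KO, and for each of the 8 genes the 3 most alike. The genes most like *Maf* are left out because of its few reads, and the values of 2 others are not reported here. Listed genes that were not called are mostly left out for length. Alternatives were pseudocounts of 1 and 0.05, other filters on low values, no trend, quantile and common-median scaling, array weights, limma-voom, all 15 libraries in 1 fit, each line's own WT, and each library left out in turn. For *Ezh2* and listed genes past the threshold they were applied after seeing the data. The fits without both Tie2-Ezh2-WT 12 and Tie2-Ezh2-KO 9 were also chosen after seeing the data.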

Additional observations from a re-analysis of the deposited data

Results flagged for a closer look

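Among 24 sets of 5 libraries looked at, 3 for each of the 8 genes, 4 had a library whose gap to the nearest other, as a share of the whole range, was above 0.71 on log2(RPKM + 0.2). On RPKM as deposited 1 of the 24 was, *Maf*, so the number depends on the scale. Chance gives about 1 in 20 for normal values. *Irf8* was far lower in Tie2-Ezh2-WT 12 than in the other WT libraries (1.16 RPKM), with a gap share of 0.848 on log2(RPKM + 0.2) and 0.698 on RPKM. *Csf1r* was far lower in the same library (0.447 RPKM), with shares of 0.777 and 0.536. *Csf1r* was also far lower in Tie2-Ezh2-KO 9 than in the rest of its group (0.523 RPKM), with shares of 0.868 and 0.708. For *Maf* the share was 1.0 on both scales in Vav-Ezh2-KO 28, which had 1 read where the other 4 libraries of the group had 0, so it stands on that read.

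*Cd68* differed between the 2 knockouts by -0.71 on the log2 scale (limma adjusted p = 0.0333), a difference between groups. Whether the knockouts' effects against their own WT differ was tested too and was not called (-0.39, adjusted p = 0.978).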

How the results depend on the processing

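Over the 8 genes and the 4 comparisons there were 31 values and 677 recomputed ones, of which 605 kept their direction and their side of the threshold, 9 fell short of it, 1 passed it and 62, from 16 of the 31 values, changed sign. None of those 16 was called in the main setting.

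Between Tie2-Ezh2-KO and Vav-Ezh2-KO the number of the 8 genes called was 1. It was 0 with no filter on low values, with eBayes without trend and with limma-voom. It was 2, *Cd68* and *Sfpi1*, without both Tie2-Ezh2-WT 12 and Tie2-Ezh2-KO 9, chosen after seeing the data and here the same fit as without Tie2-Ezh2-KO 9, counted once. It ranged from 0 to 2 when 1 library was left out. It was 0 without Tie2-Ezh2-KO 7, 11 or 17 or Vav-Ezh2-KO 1, 26 or 28, and 2 without Tie2-Ezh2-KO 9. The number of all genes called in that comparison, 495, was 765 with array weights, 969 without Tie2-Ezh2-KO 9 and 320 without Vav-Ezh2-KO 28. In Tie2-Ezh2-KO against WT, 386 became 187 with Tie2-Ezh2-WT alone, where fewer samples were fitted. In Vav-Ezh2-KO against WT, 1 became 2 with Vav-Ezh2-WT alone or without Tie2-Ezh2-WT 10 or 12 or Vav-Ezh2-WT 4, and 0 with limma-voom. In the difference between the effects, 26 became 12 with a filter at 1 RPKM in 3 libraries, 16 with no filter, 12 with quantile normalization, 16 with a common median, 78 with array weights and 2 with limma-voom. It was 15, 9 and 11 without Tie2-Ezh2-WT 4, 10 and 12, 13 and 8 without Vav-Ezh2-WT 4 and 6, 16, 16 and 15 without Tie2-Ezh2-KO 7, 11 and 17, and 14, 17 and 12 without Vav-Ezh2-KO 1, 10 and 28.

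These log2 changes took the other sign, and the cause was not tested. With limma-voom, Tie2-Ezh2-KO against WT gave 0.69 for *Maf* and -0.01 for *Itgam*, Vav-Ezh2-KO against WT gave 0.02 for *Itgam*, the knockouts against each other gave -0.01 for *Itgam*, and the difference between the effects gave 1.81 for *Maf* and -0.07 for *Cx3cr1*. With a pseudocount of 0.05, *Itgam* was -0.11 in Tie2-Ezh2-KO against WT and -0.01 between the knockouts, and *Cx3cr1* was -0.07 in the difference between the effects. With a pseudocount of 1, *Csf1r* was 0.05 between the knockouts. Under quantile normalization, *Itgam* was -0.16 in Tie2-Ezh2-KO against WT, -0.08 between the knockouts and -0.03 in the difference between the effects, *Irf8* was -0.02 between the knockouts, and *Cx3cr1* was -0.25 in the difference between the effects, where a common median gave -0.03. With array weights, *Cx3cr1* was 0.01 in Vav-Ezh2-KO against WT and *Csf1r* 0.24 between the knockouts. Against Vav-Ezh2-WT alone, *Irf8* was -0.38 and *Csf1r* -0.63 in Vav-Ezh2-KO. Without both Tie2-Ezh2-WT 12 and Tie2-Ezh2-KO 9, *Cx3cr1* was 0.08 in Tie2-Ezh2-KO against WT and 0.26 between the knockouts, *Irf8* was -0.34 and *Csf1r* -0.36 in Vav-Ezh2-KO against WT, and *Csf1r* was 0.60 between the knockouts.

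When 1 library was left out, these ranges crossed 0. In Tie2-Ezh2-KO against WT they were -0.31 to 0.61 for *Irf8*, -0.17 to 0.02 for *Maf*, -0.40 to 0.87 for *Csf1r*, -0.62 to 0.04 for *Cx3cr1* and -0.27 to 0.54 for *Itgam*. In Vav-Ezh2-KO against WT they were -0.34 to 0.38 for *Irf8*, -0.36 to 0.54 for *Csf1r* and -0.27 to 0.06 for *Itgam*. Between the knockouts they were -0.31 to 0.43 for *Irf8*, -0.24 to 0.60 for *Csf1r*, -0.40 to 0.26 for *Cx3cr1* and -0.19 to 0.62 for *Itgam*. In the difference between the effects they were -0.35 to 0.05 for *Maf*, -0.56 to 0.64 for *Cx3cr1* and -0.10 to 0.76 for *Itgam*. Where 1 WT library of a line was left, it was assumed to vary like the other groups.

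Depth limits *Maf* most, with 0 to 14 reads per library, then *Cx3cr1* with 4 to 172 and *Itgam* with 5 to 177. The gene lists hold genes that progenitors also express, and the labels give no litter, sex or experiment by library, so none of these was fitted. *Maf* was not fitted between the knockouts with the filter on low values. Other calls were lost when 1 library was left out. *Ezh2* was lost between the knockouts without Tie2-Ezh2-KO 7, 11 or 17 or Vav-Ezh2-KO 9, 10 or 26 (log2 change -0.49 to -0.41). Against WT, *Mpo* (-0.87 to -0.64) was lost without Tie2-Ezh2-WT 10, Vav-Ezh2-WT 4 or 6, or Tie2-Ezh2-KO 7, 9 or 13, and *Elane* (-2.63 to -1.81) without Tie2-Ezh2-WT 10 or 12, Vav-Ezh2-WT 4, or Tie2-Ezh2-KO 7 or 13. *Gp1ba* and *Hbb-bh1* were lost against WT in 8 of 10 such fits each, *Hbb-bh1* between the knockouts in 5 of 10, *Cpa3* without Vav-Ezh2-KO 1 or 9, and the difference between the effects on *Hba-x* in 11 of 15. That difference was lost in 7 other settings too, among them no filter, no trend, quantile and common-median scaling and limma-voom, and without both low libraries. With no trend and with each line's own WT, *Ezh2*, *Mpo*, *Elane*, *Gp1ba* and *Hbb-bh1* were lost against WT, as were the last 4 with no filter. No paired analysis was possible, because the groups compared share fewer than 2 numbers.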
